A study of Mus musculus with 12 samples.

Results

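The genes described here encode the proteins of the mitochondrial ribosome. They were taken as every gene whose symbol begins with Mrpl or Mrps followed by a digit, leaving out 6 pseudogene symbols, which gave 78 genes out of 47359 in the table. By symbol, 49 (Mrpl) were counted with the large subunit and 29 (Mrps) with the small subunit, and all 78 passed the filter on low counts. The split follows the names alone, not the place of each protein in the ribosome. Bulk RNA was sequenced from TH17 cells transferred into RAG2-/- mice, which have no mature T or B cells, and sorted again from the central nervous system (CNS) at the peak of experimental autoimmune encephalomyelitis, the mouse disease used to model multiple sclerosis. The labels give every donor as 2D2, a line with a transgenic T cell receptor for a myelin protein. The groups were 2D2-IL-17A/F-DKO CXCR6+ cells (1 library), 2D2-WT CXCR6+ cells (5 libraries), 2D2-IL-17A/F-DKO SLAMF6+ cells (1 library) and 2D2-WT SLAMF6+ cells (5 libraries). DKO cells lack Il17a and Il17f, WT cells are wild type, and CXCR6 and SLAMF6 are the surface markers of the sort. Each library came from 1000 cells. Neither age nor the animal behind each replicate is given in the sources used here, and a p-value then measures only the spread between these libraries, which may be technical.

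Mitochondria keep a ribosome of their own, separate from that of the cytosol. Its RNAs, mt-Rnr1 in the small subunit and mt-Rnr2 in the large one, are transcribed from mitochondrial DNA, whereas all of its proteins are encoded by nuclear genes, made in the cytosol and imported. It translates the mitochondrially encoded subunits of the respiratory chain and ATP synthase, and T cells are known to enlarge their mitochondrial translation apparatus on activation.

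Promoters of these genes are known to hold sites for NRF1, GABP (an ETS factor) and YY1, which regulate many nuclear genes of mitochondria. RefSeq promoter windows (GRCm38.p6, 250 bases before to 50 after the start) were found for 69 of the 78 members and searched on both strands. The NRF1 letters, GCGC followed by any base, T and GCGC, were found in 13 of them, or 18.8% against 4.78% of 27025 promoters. CCGGAAG (GABP and other ETS factors) was found in 25, or 36.2% against 9.12%, and AAGATGGC (YY1) in 12, or 17.4% against 2.88%. A TATAAA run was found in 4 (5.8% against 14.2%), and CCAAT in 27 (39.1% against 37.9%). The lines below show NRF1 and GABP matches that lie before the start in a stretch no annotated exon overlaps, 3 for each, taken from the lowest WT fold change up. Members with lower fold changes than some of those shown, among them Mrpl30 and Mrpl14 for NRF1 and Mrps18c and Mrpl18 for GABP, hold the letters after the start or where an exon is annotated, and no YY1 match met these conditions. Capitals mark the match, read 5′ to 3′ on the gene's strand, which in some lines is the reverse complement of the letters searched. They lie at chr11:97315656-97315709 (+) for Mrpl45, chr7:105811105-105811158 (-) for Mrpl17, chr11:120484534-120484587 (+) for Mrpl12, chr19:45006443-45006476 (-) for Mrpl43, chr8:71464867-71464917 (+) for Mrpl34 and chr14:54426840-54426890 (+) for Mrpl52.
Mrpl45 (NRF1): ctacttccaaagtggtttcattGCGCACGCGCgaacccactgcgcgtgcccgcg
Mrpl17 (NRF1): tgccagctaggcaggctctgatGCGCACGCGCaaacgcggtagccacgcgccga
Mrpl12 (NRF1): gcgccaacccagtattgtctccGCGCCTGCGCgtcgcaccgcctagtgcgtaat
Mrpl43 (GABP): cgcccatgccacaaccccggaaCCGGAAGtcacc
Mrpl34 (GABP): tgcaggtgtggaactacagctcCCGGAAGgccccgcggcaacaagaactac
Mrpl52 (GABP): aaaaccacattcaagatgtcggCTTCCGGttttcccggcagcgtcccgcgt
A match is a run of letters and not a measured binding site. The 42 members with any of the first 3 motifs had a median log2 fold change of -0.73 in the WT comparison described next, and the other matched members -0.63. The 8 with at least 2 of the 3 had -0.66 and the rest -0.69, and the medians with and without CCAAT were -0.52 and -0.75.

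Library totals ran from 6818658 to 11635037 counts, and single members held from 23 to 4194 counts in a library. Levels are given as CPM, a gene's count scaled to the TMM-adjusted library total, and levels of different genes are compared only per kilobase of transcript. The donor markers differed between the genotypes beyond the targeted genes. Trbv16, the beta chain segment that made up 99.6 to 99.8% of Trbv counts in WT libraries, made up 9.96% and 6.51% in the DKO CXCR6+ and DKO SLAMF6+ libraries. Both DKO libraries held the Y-linked gene Ddx3y (36.3 and 36.1 CPM) and no Xist, while WT libraries held Xist and no Ddx3y. Il17a stood at 0 CPM in DKO CXCR6+ against 345 ± 104 CPM in WT CXCR6+, and at 0.434 CPM in DKO SLAMF6+ against 339 ± 85.8 CPM in WT SLAMF6+ (SD, n = 5 each). Genotype, sex, receptor use and single libraries therefore cannot be told apart. The RNA of the sort markers did not follow the labels in every library. Cxcr6 had 382 CPM in DKO CXCR6+, 42.1, 42.9, 4.34, 19.8 and 22.4 CPM in WT CXCR6+, 162 CPM in DKO SLAMF6+ and 11.4 to 19.1 CPM in WT SLAMF6+, so WT CXCR6+ replicate 3 lay below every WT SLAMF6+ library and the DKO SLAMF6+ library above every WT CXCR6+ library. Slamf6 had 75.8 CPM in DKO CXCR6+, 1.69 to 5.02 CPM in WT CXCR6+, 259 CPM in DKO SLAMF6+ and 5.9 to 11 CPM in WT SLAMF6+. Without WT CXCR6+ replicate 3, the counts of called members described next were 66 lower and 0 higher for the WT subsets, 8 lower and 25 higher for DKO CXCR6+, 25 lower and 3 higher for DKO SLAMF6+, and 0 negative and 23 positive for the interaction. The 8 defining T cell genes did not move together between the genotypes. Cd3e was at 578 CPM (DKO CXCR6+) and 544 CPM (DKO SLAMF6+), against 141 to 242 CPM in WT libraries. Cd3g, Cd3d and Thy1 were also higher in DKO (log2 1.81, 1.32 and 0.98 in CXCR6+, 0.83, 0.64 and 1.29 in SLAMF6+). Cd4 ran from 187 to 337 CPM over the libraries, and Trbc1 had log2 0.29 in CXCR6+ and 0.85 in SLAMF6+. Trbc2 was at 1797 CPM (DKO CXCR6+) and 2026 CPM (DKO SLAMF6+), against 17953 to 31827 CPM in WT libraries. Trac was likewise lower in DKO (log2 -2.27 in CXCR6+ and -2.44 in SLAMF6+).

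Summed over the 78 members in TMM-scaled CPM, WT CXCR6+ had the lower level of the WT subsets, and both DKO libraries lay in between. The sum was 5511 CPM in DKO CXCR6+, against 4020, 3991, 4120, 4416 and 4145 CPM in WT CXCR6+. It was 5769 CPM in DKO SLAMF6+, against 6576, 6159, 6865, 7247 and 7107 CPM in WT SLAMF6+. Neither DKO library overlapped the WT libraries of its subset, and the WT subsets did not overlap each other. The log2 ratio of the sums was -0.71 for WT CXCR6+ over WT SLAMF6+. Taken as a share of all deposited counts, without TMM scaling, the same ratio was -0.32. By that share the DKO libraries did not lie in between. DKO CXCR6+ had 0.557%, within the range of WT SLAMF6+ (0.539 to 0.641%). DKO SLAMF6+ had 0.481%, within the range of WT CXCR6+ (0.463 to 0.509%). Each still lay outside the WT range of its own subset. The large and small subunit sums moved together: large over small was 1.7 in DKO CXCR6+, 1.57 to 1.71 in WT CXCR6+, 1.61 in DKO SLAMF6+ and 1.58 to 1.67 in WT SLAMF6+. In bulk libraries of sorted cells, fewer cells with these transcripts and less of them per cell cannot be told apart.

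**Figure D1:**
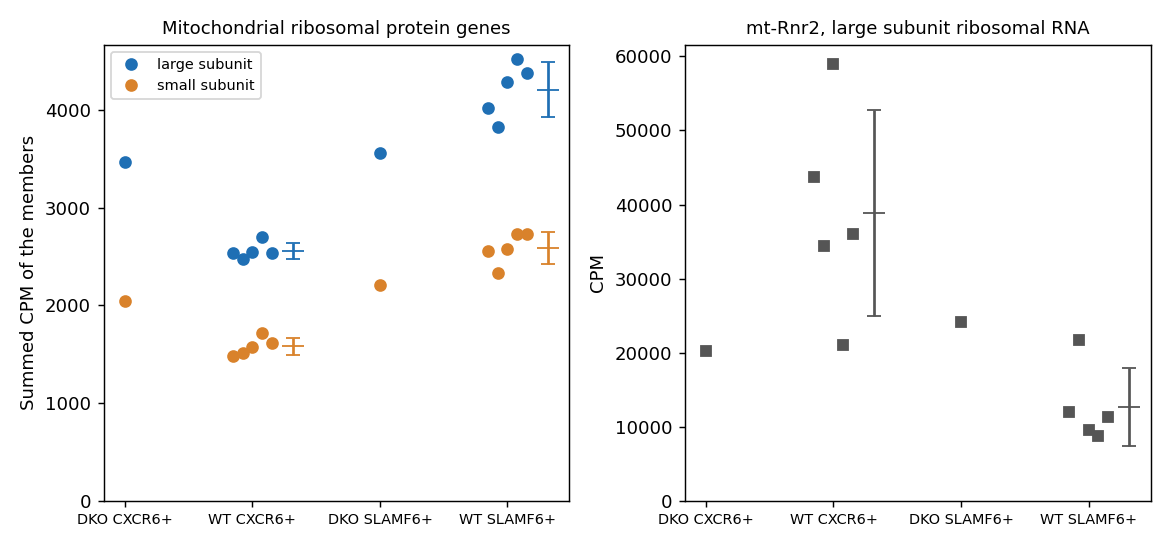
Left, summed CPM of the large (blue) and small (orange) subunit genes in each library; right, CPM of mt-Rnr2, the large subunit's ribosomal RNA. Points are libraries, and bars give the mean and SD of the 5 WT libraries of a subset. The summed members had 3991 to 4416 CPM in WT CXCR6+ against 6159 to 7247 CPM in WT SLAMF6+, and mt-Rnr2 had 21084 to 59010 CPM in WT CXCR6+ against 8784 to 21718 CPM in WT SLAMF6+.

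Per kilobase, the members spanned a wide range of levels, from a mean over the 12 libraries of 4.10 CPM per kb for Mrpl19 to 683 for Mrpl33. Lengths were taken from the annotation and not from the isoforms expressed, so this order rests in part on the annotation. In the large subunit the highest were Mrpl33, Mrpl52, Mrpl30 and Mrpl20. In the small subunit they were Mrps21, Mrps6, Mrps18c and Mrps36, the last of which has since been assigned to the oxoglutarate dehydrogenase complex. Mrpl33, homologue of a bacterial large subunit protein, stood at 937 CPM per kb in DKO CXCR6+, 531 in WT CXCR6+, 968 in DKO SLAMF6+ and 729 in WT SLAMF6+. Mrps21, homologue of a bacterial small subunit protein, stood at 502, 243, 610 and 468 CPM per kb in the same groups. The order of these 2 genes was thus the same in all 4 groups.

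The WT comparison asked how CXCR6+ and SLAMF6+ cells from the same tissue differ. Of the 78 members, 69 fell in WT CXCR6+ relative to WT SLAMF6+ and 0 rose, by edgeR's quasi-likelihood test at an adjusted p under 0.05. Over all 21565 genes tested, 17.7% were lower and 15.6% higher. At an unadjusted p under 0.05, 71 members were lower and 0 higher, and limma-voom and DESeq2's Wald test each called 70 lower and 0 higher. The median log2 fold change was -0.67 over the members and 0.13 over all genes tested. It was -0.66 in the large subunit, where 43 of 49 fell, and -0.69 in the small subunit, where 26 of 29 fell. The difference was mostly below 2-fold: 11 members were lower and 0 higher by at least 2-fold (4.77% and 8.4% of all genes), and for 56 the CPM of the WT groups did not overlap, all with WT CXCR6+ lower (15% of all genes were so).

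The lowest large subunit genes were Mrpl30, Mrpl14, Mrpl35 and Mrpl45. Mrpl30 (chromosome 1, 37890477 to 37898535, GRCm38), homologue of a bacterial large subunit protein, had 84.5, 73.7, 101, 97.8 and 115 CPM in WT CXCR6+, against 222, 221, 243, 272 and 282 CPM in WT SLAMF6+. Its log2 fold change was -1.39 (SE 0.12, edgeR adjusted p 9.12e-06). The groups did not overlap, the lowest WT SLAMF6+ library lying well above the highest WT CXCR6+ library. Mrpl14 (chromosome 17, 45686322 to 45698495), which lies at the face where the subunits meet and whose gene overlaps Tmem63b on the opposite strand by 106 bases, had 53.8, 56.5, 45.5, 57.4 and 60.6 CPM in WT CXCR6+, against 121, 117, 128, 136 and 135 CPM in WT SLAMF6+ (log2 -1.22, SE 0.08, edgeR adjusted p 1.75e-06). Mrpl45 (chromosome 11, 97315716 to 97329920), which tethers the ribosome to the inner membrane, had 40.4, 42.7, 41.5, 48.9 and 49.4 CPM in WT CXCR6+, against 87.7, 85.8, 95.2, 94.1 and 105 CPM in WT SLAMF6+ (log2 -1.07, SE 0.08, edgeR adjusted p 3.8e-06). These were likewise separate groups with a narrow spread within each. Mrpl35 averaged 24.1 ± 5.33 CPM in WT CXCR6+, against 51.7 ± 4.69 CPM in WT SLAMF6+ (log2 -1.10, edgeR adjusted p 0.000181). Mrpl10 and Mrpl12, which form the stalk that recruits translation factors, fell by less (log2 -0.80 and -0.56). Mrpl58, a peptidyl-tRNA hydrolase built into the large subunit that releases stalled chains, averaged 63.8 ± 12.1 CPM across the WT CXCR6+ libraries and 109 ± 13.9 CPM in WT SLAMF6+ (SD, n = 5 each; log2 -0.78, edgeR adjusted p 0.00106).

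In the small subunit, Mrps24 and Mrps14, both with bacterial homologues, fell most. Mrps24 (chromosome 11, 5703983 to 5715680) had 39.3, 38.7, 45, 49.1 and 47.9 CPM in WT CXCR6+, against 103, 90.8, 107, 103 and 102 CPM in WT SLAMF6+ (log2 -1.20, SE 0.08, edgeR adjusted p 1.78e-06). Mrps14 had 74.4, 65.8, 78.9, 68 and 78.9 CPM in WT CXCR6+, against 145, 155, 151, 154 and 162 CPM in WT SLAMF6+ (log2 -1.07, SE 0.07, edgeR adjusted p 1.04e-06). Neither gene's groups overlapped. Mrps12, which lies at the decoding centre, averaged 53 ± 7.63 CPM across WT CXCR6+ libraries and 82.1 ± 4.14 CPM across WT SLAMF6+ libraries (log2 -0.63, edgeR adjusted p 0.000377). The most evenly measured difference was that of Mrpl9 of the large subunit, with 47.5 ± 2.28 CPM in WT CXCR6+, against 85.8 ± 2.32 CPM in WT SLAMF6+ (log2 -0.85, SE 0.05, edgeR adjusted p 1.06e-06).

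The 9 members that did not pass the test were Mrpl2, Mrpl11, Mrpl23, Mrpl37, Mrpl38, Mrpl47, Mrps9, Mrps26 and Mrps27. The values nearest to 0 stood at the top of the order, with log2 0.09 for Mrpl47, 0.06 for Mrpl38, -0.00 for Mrps9, -0.04 for Mrps26 and -0.04 for Mrpl37, followed by -0.25 for Mrps27. Mrps9, homologue of a bacterial small subunit protein, had 53.9, 54.3, 53, 62.4 and 67.2 CPM in WT CXCR6+, against 55.2, 51.7, 58.4, 62 and 63.7 CPM in WT SLAMF6+, so its groups overlapped fully (SE 0.09). Mrpl37, a subunit protein found only in mitochondrial ribosomes, averaged 38.2 ± 3.93 CPM in WT CXCR6+, against 39.2 ± 3.75 CPM in WT SLAMF6+ (SE 0.09). Mrpl23, which lies at the exit of the peptide tunnel, had the widest error of all members (log2 -0.66, SE 0.43, edgeR adjusted p 0.257). Mrpl23 held 962 counts over the 12 libraries, and Mrpl23-ps1, a processed pseudogene matching it over 507 bases at 100% identity, held 11238. With the counts of near-identical pseudogenes added to their members, an alternative chosen after seeing the data, Mrpl23 passed the test (log2 -0.95, SE 0.10, edgeR adjusted p 4.17e-05). In the genotype comparisons described below, the same sum moved Mrpl23 from log2 -0.72 to 0.93 in CXCR6+ and from -1.06 to -0.38 in SLAMF6+. Its interaction of genotype and subset moved from 0.34 to 1.31. Mrps33, with 13313 counts of its own and 6980 in the pseudogene Gm5776, stayed lower (-0.96 alone, -0.88 with the copy). Mrps18b did not pass once its copy was added (log2 -0.28, edgeR adjusted p 0.0603).

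**Figure D2:**
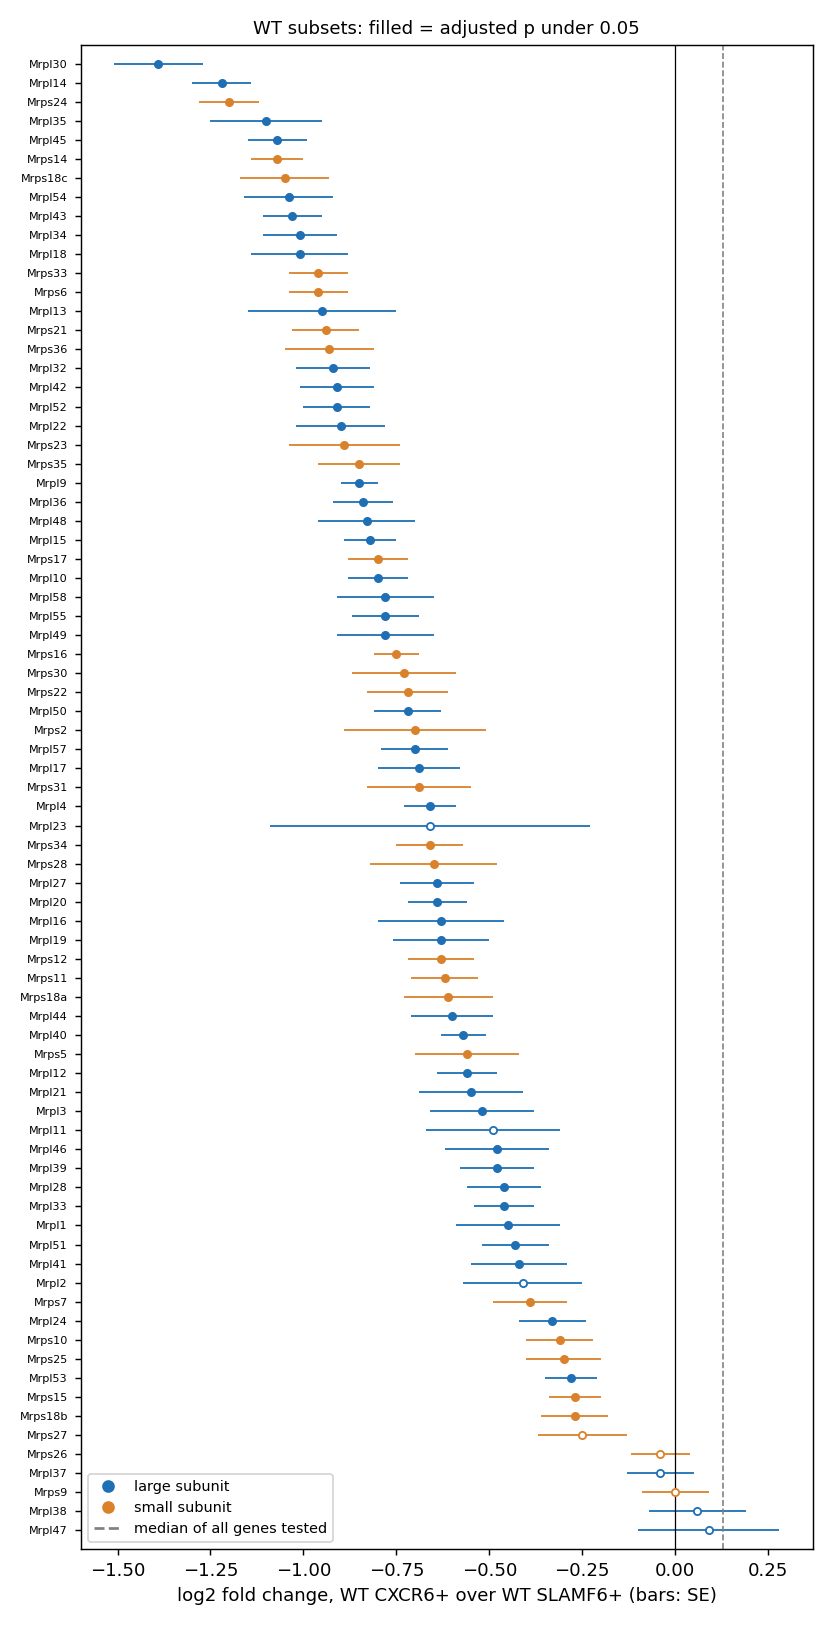
Log2 fold change of each member, WT CXCR6+ over WT SLAMF6+, with its SE as a bar. Blue is the large and orange the small subunit, filled symbols passed edgeR's test at an adjusted p under 0.05, and the dashed line is the median of all genes tested (0.13). The members ran from -1.39 (Mrpl30) to 0.09 (Mrpl47), and 69 of 78 passed; with GC and length offsets 29 passed as lower and 10 as higher.

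Several properties of the libraries moved with the WT subsets. Transcripts of cytosolic ribosomal proteins made up 9.46 to 10.8% of counts in WT CXCR6+ and 18.8 to 20.1% in WT SLAMF6+, mitochondrially encoded transcripts 12.9 to 17.6% in WT CXCR6+ and 2.2 to 5.24% in WT SLAMF6+, and Malat1, a nuclear RNA, 0.888 to 1.18% in WT CXCR6+ and 0.187 to 0.257% in WT SLAMF6+. With the mitochondrially encoded genes left out of the table, all 69 calls were kept. Across 5728 well measured genes, longer transcripts had higher fold changes (Spearman rho 0.435, a description across genes), and the members' transcripts were shorter (median 1302 nt, against 2081 nt for all genes tested). Within the members the relation was weak (rho 0.18): the 26 shortest, of 463 to 1031 nt, had a median log2 fold change of -0.81, and the 26 longest, of 1962 to 7300 nt, had -0.70, with 24 and 23 called lower. With offsets that remove the trend on GC content and transcript length, 29 members were called lower and 10 higher, the members' median was -0.14, and 25 of the 69 called members changed sign. The 6 lowest members stayed lower there (log2 -0.53 for Mrpl30, -0.73 for Mrpl14, -0.51 for Mrps24, -0.77 for Mrpl35, -0.78 for Mrpl45 and -0.80 for Mrps14), and Mrps9 was called higher (0.62). Markers of CNS cells were low in both subsets but lower in WT CXCR6+: the 5 astrocyte genes summed to 49.3 to 72.2 CPM in WT CXCR6+, against 133 to 147 CPM in WT SLAMF6+, the 5 oligodendrocyte genes to 65.5 to 75 CPM in WT CXCR6+, against 123 to 149 CPM in WT SLAMF6+, and the 5 microglia genes to 19.1 to 41.5 CPM in WT CXCR6+, against 62.4 to 83 CPM in WT SLAMF6+. The part of RNA quality and of these cells in the result was not tested.

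The transfer RNA gene mt-Ts1 was at 0 counts in 5 libraries (WT CXCR6+ replicate 1 and WT SLAMF6+ replicates 1, 3, 4 and 5) and reached 357922 counts in another, so libraries were also compared within each kind. Where mt-Ts1 was at 0 (1 WT CXCR6+ library against 4 WT SLAMF6+ libraries), 78 of 78 members were lower in CXCR6+, with a median log2 difference of -0.75. Where it had counts (4 against 1), 69 of 78 were lower, with a median of -0.53. Over all genes tested, 47.2% and 45.8% were lower, with medians of 0.00 and 0.01. One side of each of these comparisons is a single library.

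Genes that work with the mitochondrial ribosome were read from lists, whose counts stand against 17.7% lower and 15.6% higher over all genes tested. Of 6 genes listed as mitoribosomal proteins with other names, 3 fell in WT CXCR6+ and 1 rose (median log2 -0.50). The 6 include Oxa1l, a membrane insertase rather than a ribosomal protein, which was not called (log2 -0.19). Gadd45gip1, Chchd1 and Aurkaip1 were the lower ones (log2 -0.80, -0.83 and -0.75) and Ptcd3, a small subunit protein that binds RNA, was the higher one (0.49, edgeR adjusted p 0.00859). Of 25 genes of mitochondrial protein import, 17 fell and 2 rose (median -0.69), among them Tomm20 (-1.10), Tomm7 (-0.95) and Tomm22 (-0.85) of the outer membrane translocase. Of 17 translation factors, 6 fell and 2 rose (median -0.29), with Mrrf, the ribosome recycling factor, at -1.02 and Tufm, the elongation factor, at -0.40. Assembly and RNA modification factors were mixed, with 10 of 30 lower and 5 higher (median -0.15). Malsu1, which binds Mrpl14 on the assembling large subunit, fell (-0.73), and Dhx30, an RNA helicase of assembly, rose (0.69). Of 15 genes of mitochondrial transcription, RNA processing and DNA replication, 7 fell and 2 rose (median -0.34), with Tfam, which packages and helps to transcribe mitochondrial DNA, at -0.58 (edgeR adjusted p 0.0371). Of 20 aminoacyl-tRNA synthetases and related genes 4 fell and 6 rose (median 0.01), led by Cars2 (0.88) and Vars2 (1.03).

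The RNAs of the mitochondrial ribosome went the other way from most transcripts of its protein genes. No protein was measured. mt-Rnr2 had 43785, 34338, 59010, 21084 and 36028 CPM in WT CXCR6+, against 11972, 21718, 9592, 8784 and 11269 CPM in WT SLAMF6+, and the groups overlapped in the value of 1 library each. mt-Rnr1 stood at 362 to 601 CPM in WT CXCR6+, against 121 to 259 CPM in WT SLAMF6+. How fully the cDNA method captures mt-Rnr1 and mt-Rnr2 is not known here, so their CPM need not follow their amounts. Of the 15 mitochondrially encoded genes listed, 14 rose in WT CXCR6+ and 0 fell (median log2 1.62), for example mt-Nd1 (1.86) and mt-Co1 (1.63). Polrmt, the mitochondrial RNA polymerase, also rose (log2 0.60, edgeR adjusted p 0.00449). Of 10 nuclear regulators tested, 2 fell and 4 rose (median 0.24). Gabpb1, a subunit of GABP, fell to 30.6 ± 3.88 CPM in WT CXCR6+, against 61.3 ± 3.62 CPM in WT SLAMF6+ (log2 -1.0, edgeR adjusted p 1.37e-05). Nrf1 fell by 0.41 on the log2 scale, while Yy1 and Esrra rose (0.76 and 1.31).

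**Figure D3:**
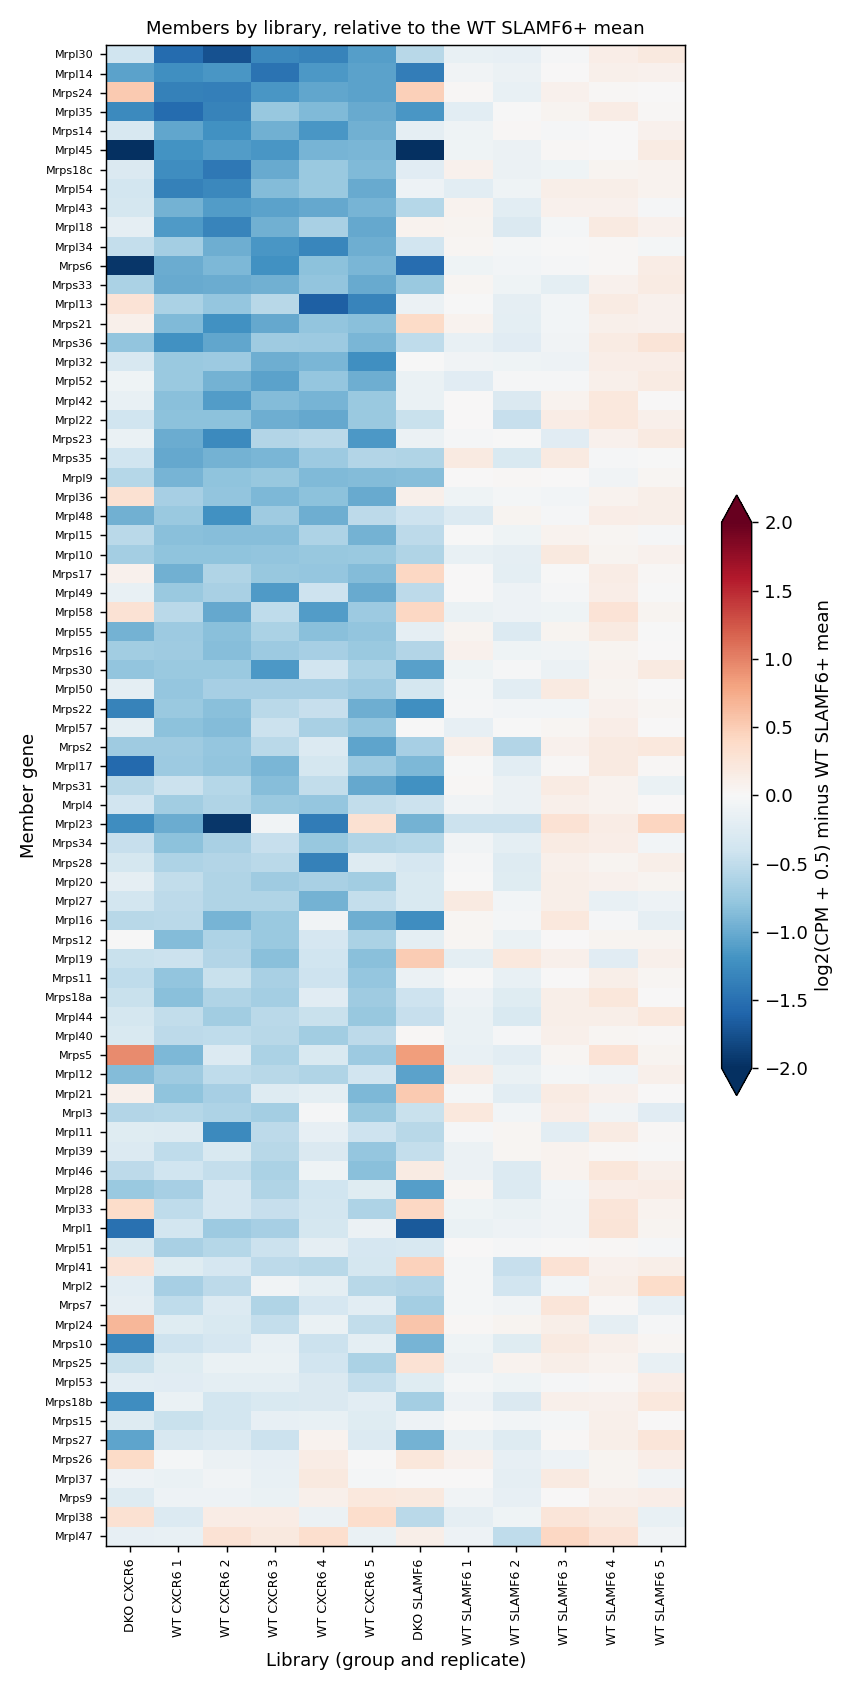
Log2(CPM + 0.5) of each member in each library, minus the mean of the 5 WT SLAMF6+ libraries. Rows are ordered by the WT fold change and columns by group, blue is lower and red higher. The 5 WT CXCR6+ columns are blue for most rows, whereas the DKO CXCR6+ and DKO SLAMF6+ columns resemble each other (median log2 ratio -0.03), with Mrpl45, Mrps6 and Mrpl1 dark in both.

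The genotype comparison in CXCR6+ asked how loss of the cytokines goes with expression in that subset, from a single DKO library assumed to vary like the WT ones. Of the 78 members, 27 were higher in DKO CXCR6+ than in WT CXCR6+ and 8 lower (edgeR, adjusted p under 0.05), where 12.8% of all genes were higher and 15.9% lower. The median log2 fold change was 0.24 over the members and -0.22 over all genes tested. The DKO value lay above the 5 WT values for 41 members (29.6% of all genes) and below them for 13 (28.1%). At least 2-fold, 7 were higher and 3 lower (8.56% and 12.8% of all genes). The WT comparison shares the WT CXCR6+ libraries with this one.

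Mrps24 and Mrps5 had the largest gains, in the small subunit. Mrps24 had 145 CPM in DKO CXCR6+, against 39.3, 38.7, 45, 49.1 and 47.9 CPM in WT CXCR6+ (log2 1.72, SE 0.12, edgeR adjusted p 2.54e-06). Mrps5 (chromosome 2, 127587222 to 127606829), homologue of a bacterial protein at the entry of the messenger RNA, had 143 CPM in DKO CXCR6+, against 39.6, 61.1, 47.7, 60 and 44.4 CPM in WT CXCR6+ (log2 1.50, SE 0.21, edgeR adjusted p 0.000299). Both DKO values lay far above every WT value. Mrps21 also rose (log2 1.04). In the large subunit Mrpl13 had 46.5 CPM in DKO CXCR6+, against 24.5, 22.2, 25.9, 12 and 15 CPM in WT CXCR6+ (log2 1.22, SE 0.31, edgeR adjusted p 0.0119). Mrpl36 rose to 89.8 CPM in DKO CXCR6+, against 40.6 ± 3.7 CPM in WT CXCR6+ (log2 1.14), and Mrpl58 to 133 CPM in DKO CXCR6+, against 63.8 ± 12.1 CPM in WT CXCR6+ (log2 1.06).

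The 8 lower members were Mrpl45, Mrpl1, Mrpl17, Mrps6, Mrps10, Mrps18b, Mrps22 and Mrps27. Mrpl45 had 17.7 CPM in DKO CXCR6+, against 40.4, 42.7, 41.5, 48.9 and 49.4 CPM in WT CXCR6+ (log2 -1.33, SE 0.16, edgeR adjusted p 9.37e-05). Mrpl1 (chromosome 5, 96209493 to 96266727), homologue of the bacterial protein of the stalk at the transfer RNA exit, had 7.51 CPM in DKO CXCR6+, against 16.9, 13.1, 13.7, 17.2 and 20.2 CPM in WT CXCR6+ (log2 -1.11, edgeR adjusted p 0.00891). Mrps6 (chromosome 16, 92058270 to 92112227) had 57.9 CPM in DKO CXCR6+, against 113, 121, 97.1, 127 and 119 CPM in WT CXCR6+ (log2 -1.0, edgeR adjusted p 0.000396). In each case the DKO value lay below all 5 WT values. Mrps10 stood at 29.2 CPM in DKO CXCR6+, against 59.4 ± 5.57 CPM in WT CXCR6+ (log2 -1.02), and Mrps18b at 40.7 CPM in DKO CXCR6+, against 80.6 ± 4.96 CPM in WT CXCR6+ (-0.99). Mrpl17 stood at 69.2 CPM in DKO CXCR6+, against 128 ± 19.7 CPM in WT CXCR6+ (-0.88). Mrps27 and Mrps22 were lower by log2 -0.85 and -0.65. With GC and length offsets 8 members were again called lower, Mrpl45 at -1.09 and Mrps6 at -1.13 among them. Exons of Mrps6 overlap those of Slc5a3 on the same strand, and the sources used here do not say how reads of such overlaps were assigned.

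In SLAMF6+ the balance was different, again with a single DKO library. Of the 78 members, 25 fell in DKO SLAMF6+ relative to WT SLAMF6+ and 5 rose (edgeR, adjusted p under 0.05), where 17.5% of all genes were lower and 13.5% higher. The median log2 fold change was -0.41 over the members and -0.05 over all genes tested. The DKO value lay below the 5 WT values for 49 members (30.9% of all genes) and above them for 13 (35.1%). At least 2-fold, 11 were lower and 0 higher (13.2% and 10.7% of all genes). With GC and length offsets 9 members were called lower and 26 higher (median 0.09), and with only genes of at least 10 CPM in 5 libraries 18 were lower and 15 higher, so the direction over the members rests on the scaling. The 5 higher calls became 3 without any 1 of WT CXCR6+ replicates 3 and 4 and WT SLAMF6+ replicates 1, 2, 3 and 5. The DKO SLAMF6+ library also held 143738 CPM of haemoglobin genes and Alas2, markers of red blood cells, against 0.972 to 3.45 CPM in WT SLAMF6+, and 269 CPM of myeloid markers, against 5.58 to 7.66 CPM in WT SLAMF6+. Of 8 myeloid markers tested, 6 were higher there, led by Tyrobp (171 CPM) and Fcer1g (64.3 CPM), which natural killer cells also express. In DKO CXCR6+ the myeloid sum was 74 CPM, against 3.46 to 9.88 CPM in WT CXCR6+, and the list was mixed: Tyrobp (33.6 CPM), Fcer1g (25.1 CPM) and Lyz2 (10.4 CPM) were higher, Cd68 was lower (log2 -1.79, edgeR adjusted p 0.0195), and C1qa and C1qb were at 0. The part of these cells in the result was not tested. With haemoglobin, mitochondrially encoded, ribosomal protein, receptor and immunoglobulin genes kept out of the library size, but not Alas2 or the myeloid markers, 26 members were lower and 4 higher.

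The largest drops kept their direction under those offsets. Mrpl45 had 18 CPM in DKO SLAMF6+, against 87.7, 85.8, 95.2, 94.1 and 105 CPM in WT SLAMF6+ (log2 -2.38, SE 0.17, edgeR adjusted p 2.93e-06; -1.95 with offsets). No exon of another gene overlaps Mrpl45, and no near-identical pseudogene of it was found. Mrpl1 had 6.52 CPM in DKO SLAMF6+, against 20, 20.5, 20.8, 26.4 and 22.8 CPM in WT SLAMF6+ (log2 -1.76, SE 0.28, edgeR adjusted p 0.000698; -1.31 with offsets). Mrps6 had 78.3 CPM in DKO SLAMF6+, against 211, 217, 221, 228 and 249 CPM in WT SLAMF6+ (log2 -1.52, SE 0.15, edgeR adjusted p 2.56e-05; -0.89 with offsets). All 3 DKO values lay below every WT value. Mrpl14 stood at 48.4 CPM in DKO SLAMF6+ and 127 ± 8.44 CPM in WT SLAMF6+ (log2 -1.39; -1.08 with offsets). Mrpl16, near the peptidyl transferase centre, and Mrps31 were also lower (log2 -1.29 and -1.26), but neither passed with the offsets (edgeR adjusted p 0.0947 and 0.0921). Mrpl12 of the stalk stood at 33.2 CPM in DKO SLAMF6+ and 70.3 ± 5.95 CPM in WT SLAMF6+ (log2 -1.08, edgeR adjusted p 0.000276).

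The 5 higher members were Mrps5, Mrpl24, Mrps24, Mrps17 and Mrpl33. Mrps5 had 133 CPM in DKO SLAMF6+, against 66.7, 63.9, 75.7, 89.3 and 76.6 CPM in WT SLAMF6+ (log2 0.84, SE 0.22, edgeR adjusted p 0.014). Mrpl24, homologue of a bacterial protein at the tunnel exit, had 139 CPM in DKO SLAMF6+, against 95.9, 98.1, 102, 82.6 and 93 CPM in WT SLAMF6+ (log2 0.56, SE 0.14, edgeR adjusted p 0.0122). Mrps24 had 141 CPM in DKO SLAMF6+, against 103, 90.8, 107, 103 and 102 CPM in WT SLAMF6+ (log2 0.48, SE 0.13, edgeR adjusted p 0.0188). The DKO value was the highest of the 6 for each. Mrps17 and Mrpl33 both had log2 0.41 (edgeR adjusted p 0.0416 and 0.0468). Mrpl21, Mrpl19 and Mrpl41 had like values, 0.52, 0.51 and 0.44, that did not pass. Exons of Mrpl24 overlap those of Rrnad1 on the opposite strand and exons of Mrps24 those of Urgcp on the same strand, and the library method does not mark the strand.

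Across the subsets, all 8 members lower in DKO CXCR6+ were also lower in DKO SLAMF6+ (8 of 8 and 8 of 25), and all 5 higher in DKO SLAMF6+ were also higher in DKO CXCR6+ (5 of 5 and 5 of 27). Mrpl9 and Mrpl43 were called higher in DKO CXCR6+ and lower in DKO SLAMF6+, and 28 members were called in neither. Over all genes tested, 66.4% of those lower in DKO CXCR6+ were also lower in DKO SLAMF6+ and 60.2% the other way round, and for higher genes the shares were 51.6% and 49.1%. The 27 members higher in DKO CXCR6+ had 18.5% of their number also higher in DKO SLAMF6+. The comparisons share no library, but both DKO libraries carry the same number in the labels.

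**Figure D4:**
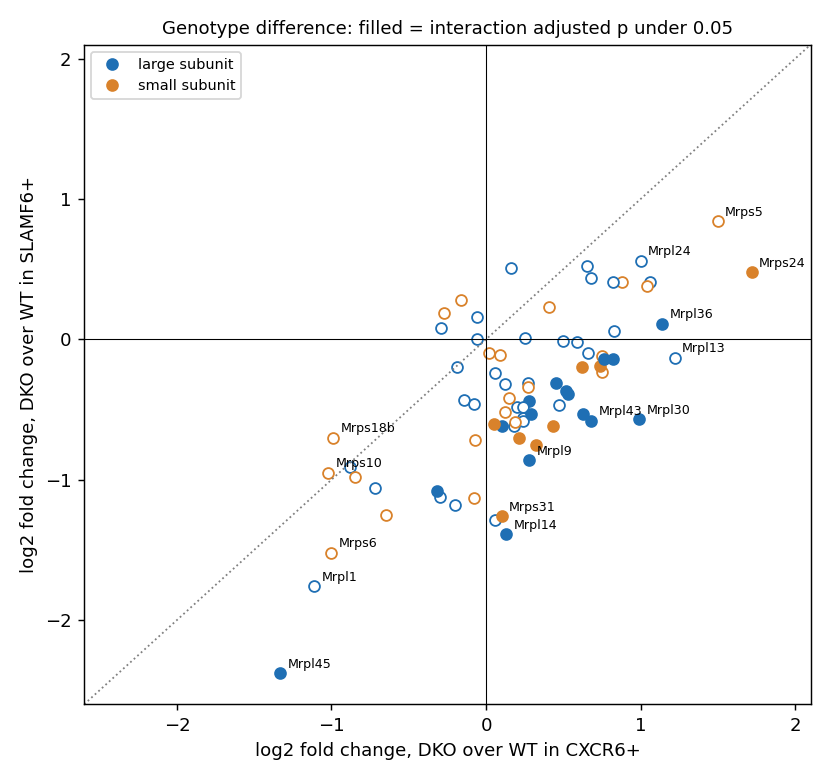
Log2 fold change of each member, DKO over WT, in CXCR6+ (horizontal) and SLAMF6+ (vertical). Blue is the large and orange the small subunit, the dotted line marks equal values, and filled symbols passed the interaction at an adjusted p under 0.05. Most members lie below the dotted line (interaction above 0 for 70 of 78), Mrpl45 is lowest on both axes (-1.33 and -2.38), and Mrps24 and Mrps5 are the farthest to the right (1.72 and 1.50).

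The interaction tested whether the genotype difference itself differed between the subsets, as the DKO over WT fold change in CXCR6+ minus that in SLAMF6+. It was positive and passed for 24 members and was negative and passed for 0 (edgeR, adjusted p under 0.05), where 6.36% of all genes were positive and 3.94% negative. At an unadjusted p under 0.05, 45 were positive and 0 negative, DESeq2's Wald test called 32 positive and 0 negative, and limma-voom called 21 and 0. The median was 0.67 over the members and -0.10 over all genes tested. For 20 of the 24 the DKO library was above the WT mean in CXCR6+ and below it in SLAMF6+. The exceptions were Mrps24 and Mrpl36, above in both, and Mrpl45 and Mrpl12, below in both. At least 2-fold, 11 were positive and 0 negative (4.23% and 3.6% of all genes). The interaction holds the WT difference between the subsets as one of its terms. Without WT SLAMF6+ replicate 3 the count was 15, and with GC and length offsets 7 were positive and 5 negative (median 0.20).

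Mrpl9, homologue of a bacterial large subunit protein, had the smallest p. It had 57.6 CPM in DKO CXCR6+, against 44.8, 49.1, 50.5, 46.4 and 46.6 CPM in WT CXCR6+ (log2 0.28, edgeR adjusted p 0.038). In SLAMF6+ it had 47.4 CPM in DKO, against 86.2, 86.9, 86.3, 81.8 and 87.7 CPM in WT (log2 -0.86, edgeR adjusted p 6.62e-05). The DKO library was thus the highest of its subset in CXCR6+ and the lowest in SLAMF6+, and the interaction was 1.14 (SE 0.13, edgeR adjusted p 0.00126). Mrpl43, a protein with no bacterial counterpart whose gene overlaps Twnk on the opposite strand, had 46.7 CPM in DKO CXCR6+, against 29.2 ± 1.6 CPM in WT CXCR6+. It had 39.8 CPM in DKO SLAMF6+, against 59.7 ± 5.2 CPM in WT SLAMF6+ (interaction 1.26, SE 0.19, edgeR adjusted p 0.00329). The largest interactions were those of Mrpl30 (1.56, edgeR adjusted p 0.00916), Mrpl14 (1.53, edgeR adjusted p 0.00221) and Mrps31 (1.36, edgeR adjusted p 0.0345). For Mrpl30 the DKO value was 187 CPM in CXCR6+ and 167 CPM in SLAMF6+, between the WT subsets. Mrpl13 and Mrpl16, both at 1.35, did not pass. The lowest values, from -0.46 for Mrps9 and -0.44 for Mrps25 to -0.22 for Mrpl46, did not pass either. With offsets Mrpl9, Mrpl14 and Mrpl43 still passed (0.70, 1.12 and 0.73), Mrpl30 and Mrps31 did not, and Mrps9 (-0.98) and Mrps18b (-1.0) passed as negative.

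Between the 2 DKO libraries themselves the members hardly differed. The log2 ratio of DKO CXCR6+ over DKO SLAMF6+ had a median of -0.03 over the members and 0.00 over all genes tested, with no test since each is a single library. Past 1.5-fold, 5 members were lower and 3 higher in DKO CXCR6+ (23.3% and 21.5% of all genes), and past 2-fold 0 were either (16.5% and 13.9%). The genes behind these shares were not matched to the members in expression level, so the shares are only a loose yardstick. Mrpl45, Mrpl14 and Mrpl30 had ratios of -0.02, 0.31 and 0.16. The 5 lower members were Mrpl19 (-0.97), Mrpl55 (-0.77), Mrps25 (-0.74), Mrpl46 (-0.69) and Mrpl17 (-0.66), and the 3 higher ones Mrpl38 (0.85), Mrpl16 (0.71) and Mrps31 (0.66). Exons on the opposite strand overlap Mrps25 (Nr2c2, 4590 bases), Mrpl19 (Gcfc2, 1962 bases) and Mrpl46 (Mrps11, 173 bases), and the library method does not mark the strand. Among all members, 33 have exons that overlap those of another gene. With 1 library on each side no spread is known for these ratios.

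The ribosome's RNAs and its partners were set beside this. mt-Rnr2 had 20220 CPM in DKO CXCR6+, against 21084 to 59010 CPM in WT CXCR6+, and 24181 CPM in DKO SLAMF6+, against 8784 to 21718 CPM in WT SLAMF6+. Mitochondrially encoded transcripts made up 7.45% of counts in DKO CXCR6+ (12.9 to 17.6% in WT CXCR6+) and 8.56% in DKO SLAMF6+ (2.2 to 5.24% in WT SLAMF6+). Of the 15 genes, 12 were higher and 0 lower in DKO SLAMF6+, 2 were lower and 0 higher in DKO CXCR6+, and 11 had a negative interaction (median log2 -2.21). Import genes had 7 lower and 7 higher in DKO CXCR6+, 13 lower and 0 higher in DKO SLAMF6+ and 7 positive interactions of 25 (median 0.70). The counts for both lists stand against the shares over all genes tested that are given above for each comparison. The median interaction over all genes tested was -0.10. Cytosolic ribosomal proteins took 16.2% of counts in DKO CXCR6+, 9.46 to 10.8% in WT CXCR6+, 15.1% in DKO SLAMF6+ and 18.8 to 20.1% in WT SLAMF6+. Malat1 took 0.663% in DKO CXCR6+, 0.888 to 1.18% in WT CXCR6+, 0.594% in DKO SLAMF6+ and 0.187 to 0.257% in WT SLAMF6+. Astrocyte genes summed to 3.01 CPM in DKO CXCR6+, 49.3 to 72.2 CPM in WT CXCR6+, 1.16 CPM in DKO SLAMF6+ and 133 to 147 CPM in WT SLAMF6+. Oligodendrocyte genes went the other way, with 249 CPM in DKO CXCR6+, 65.5 to 75 CPM in WT CXCR6+, 234 CPM in DKO SLAMF6+ and 123 to 149 CPM in WT SLAMF6+. Microglia genes had 50.8 CPM in DKO CXCR6+, 19.1 to 41.5 CPM in WT CXCR6+, 49.8 CPM in DKO SLAMF6+ and 62.4 to 83 CPM in WT SLAMF6+. Endothelial genes had 20.8 CPM in DKO CXCR6+, 7.08 to 12.8 CPM in WT CXCR6+, 37.5 CPM in DKO SLAMF6+ and 11.2 to 18 CPM in WT SLAMF6+. The ribosomal protein, mitochondrial and Malat1 shares lay closer together between the DKO libraries than between the WT subsets, and the part of these shares and cell types in the members' result was not tested.

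**Figure D5:**
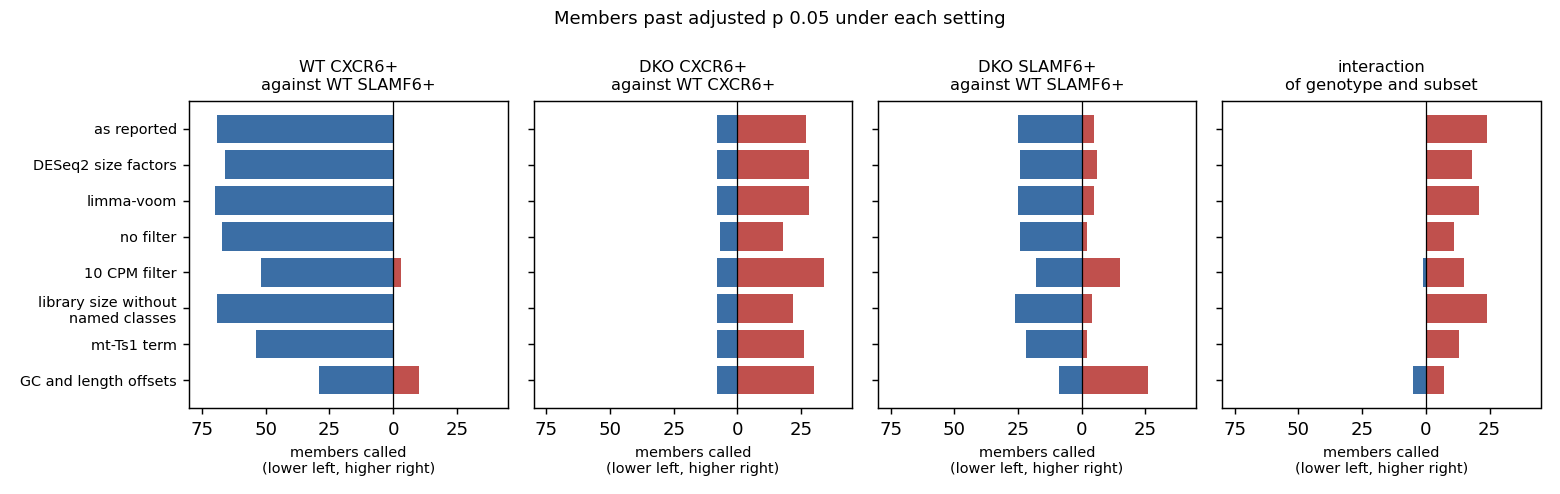
Number of members called lower (blue, left) and higher (red, right) at an adjusted p under 0.05 in each comparison, under the reported analysis and 7 alternatives. The WT comparison had 69 lower and 0 higher as reported and 29 lower and 10 higher with GC and length offsets; DKO SLAMF6+ against WT SLAMF6+ had mostly lower calls as reported (25 and 5) and mostly higher ones (9 and 26) under those offsets.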

How the data were processed

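Full-length cDNA of 1000 sorted cells per library was made with a modified SMART-Seq2 protocol and sequenced as Nextera XT libraries, which do not mark the strand, per the labels' protocols. The values are the authors' expected counts for each gene symbol, deposited as 1 table. The submitters' processing notes name STAR 2.7.7a, RSEM 1.3.3 and the mm10 build. No annotation or handling of shared reads is given in the sources used here. The values were whole numbers and were used as they stood. Of the symbols, 41372 (87.4%) matched GENCODE M21 (GRCm38), the source of coordinates and lengths. A gene's length was that of its longest protein-coding transcript in the basic set, with other transcripts used only where none was of that kind.

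All 12 libraries entered a single fit of 4 group means in edgeR 4.0.16 (R 4.3.3): TMM scaling, filterByExpr (21565 genes tested), the quasi-likelihood test (8 residual degrees of freedom) and Benjamini-Hochberg adjustment over all genes tested, at 0.05. DKO pair ratios used a prior count of 2. The fit was checked on simulated counts. Alternatives changed the scaling, filter, test (DESeq2 1.42.0, limma 3.58.1), samples, block, offsets and threshold. The members and lists were chosen with earlier results of these data known, and members were named by a rule: the 6 lowest and 6 highest fold changes of each comparison, calls against the majority direction, the smallest interaction p and the highest levels per kilobase. A part of the rule on correlations over WT libraries was left out, because these form 2 clusters of 5. Other genes were named as examples of the lists after their values were seen.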

Additional observations from a re-analysis of the deposited data

Results flagged for a closer look

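Within the WT groups, 82 sets of 5 values were checked for a library far from the other 4, and 4 were found. Chance gives about 1 in 20. In WT CXCR6+ replicate 4, Mrpl37 stood at 44.9 CPM (35.2 to 37.9 in the others), Mrps27 at 35.5 CPM (25.2 to 28) and Mrpl17 at 161 CPM (109 to 124). In WT SLAMF6+ replicate 4, Mrpl9 stood at 81.8 CPM (86.2 to 87.7 in the others).

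For 11 named members the genotype difference differed between CXCR6+ and SLAMF6+ by the interaction test (edgeR, adjusted p under 0.05). Some were named for their interaction values, so this count cannot be set against the 6.36% of all genes that were positive. Over all 78 members 24 were positive. The 11 were Mrpl30 (log2 1.56), Mrpl14 (1.53), Mrps31 (1.36), Mrpl43 (1.26), Mrps24 (1.24), Mrpl9 (1.14), Mrpl45 (1.05), Mrpl36 (1.04), Mrpl52 (0.96), Mrps14 (0.93) and Mrpl20 (0.75). The single DKO library was above the WT mean in CXCR6+ and below it in SLAMF6+ for 8 of them, above it in both subsets for Mrps24 and Mrpl36, and below it in both for Mrpl45. With GC and length offsets 7 of the 78 members passed as positive, and Mrpl30 and Mrps31 were not among them.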

How the results depend on the processing

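For the count of members lower in WT CXCR6+, every alternative but the offsets for GC content and transcript length (29) and the 2-fold limit (11) stayed within 1.5 times of 69, and leaving out a library gave 63 to 69. Higher members numbered 3 with only genes of at least 10 CPM in 5 libraries and 10 with the offsets. That filter moved the median of all genes by 0.26 in this comparison, and the members' median with it to -0.41. As a share of deposited counts the log2 ratio of the summed members was -0.32. For DKO CXCR6+, 16 members were higher when only the groups compared were fitted, and 3 were lower and 7 higher with the 2-fold limit. For DKO SLAMF6+, higher members numbered 2 without a filter or with an added term for mt-Ts1, 8 with DESeq2's Wald test, 15 with the 10 CPM filter and 0 with the 2-fold limit, 3 to 5 when a library was left out, and the offsets gave 9 lower and 26 higher; the 2-fold limit gave 11 lower. For the interaction, positive calls numbered 11 without a filter or with the 2-fold limit, 13 with the mt-Ts1 term, 15 with the 10 CPM filter (1 negative), 7 with the offsets (5 negative) and 15 to 24 when a library was left out. The causes were not tested.

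Members near 0 in the WT comparison changed sign. Leaving out a library gave -0.02 to 0.20 for Mrpl47, -0.02 to 0.13 for Mrpl38, -0.06 to 0.03 for Mrps9 and -0.10 to 0.01 for Mrpl37, and the mt-Ts1 term gave -0.04 for Mrpl38. DESeq2 size factors gave 0.05 for Mrps9, 0.01 for Mrps26 and 0.01 for Mrpl37, and DESeq2's Wald test 0.04, 0.01 and 0.01. The 10 CPM filter gave 0.26 for Mrps9, 0.23 for Mrps26, 0.23 for Mrpl37 and 0.01 for Mrps27, and the offsets 0.62, 0.06, 0.36 and 0.10. Fitting only the groups compared gave 0.13 for Mrps9, 0.09 for Mrps26 and 0.09 for Mrpl37. Mrps9 also reached 0.01 with abundant gene classes kept out of the library size, 0.05 after thinning to the smallest total and 0.02 with the mt-Ts1 term, as did Mrps26 (0.02).

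The labels use the same replicate numbers in both WT subsets, and whether equal numbers share an animal is not given. Same-numbered libraries had correlations of deviations from -0.012 to 0.029, and 2 of 5 correlated best with their own number. Correlations this small cannot decide whether the libraries are paired, and the reported fit treated them as unpaired. With the replicate number as a block, 66 members were lower in WT CXCR6+ and 13 interactions were positive. The mt-Ts1 term, the pseudogene sums and the table without mitochondrially encoded genes were added after seeing the data. Single DKO libraries and 8 residual degrees of freedom limit what the genotype comparisons can resolve.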
